A study of Mus musculus with 12 samples.

Results

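The 10 genes described here encode the machinery of antigen presentation by MHC class II molecules in the mouse. They are the class II chain genes H2-Aa, H2-Ab1 and H2-Eb1, the invariant chain gene Cd74, the peptide exchange genes H2-DMa, H2-DMb1, H2-DMb2, H2-Oa and H2-Ob, and Ciita. They were taken by symbol from the 23420 gene symbols of the expression table, and all 10 had a row and passed the filter of a value above 0 in at least 3 of 12 libraries. H2-DMb2, H2-Oa and H2-Ob were above 0 in 11, 8 and 4 libraries and the others in 12. Their RNA was measured in epidermal leukocytes that a cell sorter had taken as CD45+CD3-CD11b+MHCII+, with 100 cells in a tube. Cbfβ2 knockout mice (KO) and wild-type mice (wt) were sampled at 1.5 months after birth (1.5M) and at day 5 after birth (P5), which makes 4 groups, 1.5M KO, 1.5M wt, P5 KO and P5 wt, of 3 libraries each. Cbfβ2 is a splice form of the subunit that binds Runx transcription factors to DNA more tightly. The sources used here do not give the strain, the sex, how the allele was made or which tissues lack it. The 3 libraries of a group were prepared independently, and no label ties them to separate mice, so the p-values below reflect a spread that can be technical. All 4 groups were gated on class II protein at the surface, so every level below is that of cells already chosen for carrying it.

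The table holds scaled molecule counts, in which each library was brought to the same total, so a scaled count is a share of the library. Libraries of 1.5M KO held 74620 to 77419 molecules and those of 1.5M wt 40254 to 51848, while P5 KO libraries held 30913 to 51001 and P5 wt libraries 34192 to 52208. By counting error alone, a count of 0 over all libraries of a group allows up to 3 molecules, or 0.485 scaled counts for 1.5M KO, 0.831 for 1.5M wt, 0.907 for P5 KO and 0.895 for P5 wt. Cbfb, whose 3' end does not separate the deleted splice form from the others, had 1.92, 0.994 and 2.40 scaled counts in 1.5M KO, against 13.8, 7.15 and 10.7 in 1.5M wt. It had 3.63, 1.45 and 2.40 in P5 KO, against 4.97, 4.34 and 3.91 in P5 wt. The groups did not overlap at either age, and limma called the difference at 1.5M (log2 fold change −2.05, adjusted p = 0.00132) but not at P5 (−0.67, adjusted p = 0.490).

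The gated cells differed in their markers between the groups. A list of 6 Langerhans cell genes, among them Cd207 for langerin, summed to between 34.8 and 51.3 scaled counts in 1.5M KO libraries, against 390 to 484 in 1.5M wt. The same list summed to between 9.60 and 15.9 in P5 KO, with Cd207 at 0, against 61.8 to 77.2 in P5 wt. A list of 10 macrophage and monocyte genes summed to 492 to 572 in 1.5M KO, against 75.1 to 95.5 in 1.5M wt, and to 186 to 211 in P5 KO, against 140 to 172.5 in P5 wt. Its genes did not move as a block at P5, where Cd14 lay between 28.8 and 40.7 in P5 KO, against 3.91 to 11.9 in P5 wt, while C1qa lay between 15.3 and 22.8 in P5 KO, against 27.0 to 34.7 in P5 wt. Keratinocyte, neutrophil and erythroid genes together summed to 1123, 751 and 463 in the P5 KO libraries, against 79.8, 92.6 and 75.7 in P5 wt. B cells also present antigen on class II, and their markers Ms4a1, Ebf1 and Pax5 were at 0 in all 12 libraries. In RNA from pooled cells, fewer cells of a type and less RNA per cell cannot be told apart, and the part of these marker shifts in the results below was not tested.

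Class II molecules are heterodimers that carry peptides from the endocytic pathway to the cell surface, where CD4+ T cells read them. The invariant chain fills the groove of a new class II molecule and steers it to endosomes, where proteases trim it to a fragment called CLIP. H2-DM then exchanges CLIP for peptide, and H2-O restrains H2-DM. The class II transactivator, the product of Ciita, does not bind DNA itself. It is recruited by proteins on conserved promoter elements, among them the X box bound by the RFX complex and the Y box bound by NF-Y. Langerhans cells are resident antigen-presenting cells of the epidermis that carry class II molecules, and cells of the monocyte and macrophage lineage can carry them too.

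For 7 of the 10 genes RefSeq (build GRCm38.p6) had a promoter entry, all of them in the class II region of chromosome 17, and 6 stretches of 70 bases are shown because the same regulatory letters recur in them. Each reads 5' to 3' on the strand of its gene, and the capitals mark ATTGG, the core of the Y box read on this strand, and AGNAAC, a core of the X box, where it lies 31 to 34 bases ahead.
H2-Aa: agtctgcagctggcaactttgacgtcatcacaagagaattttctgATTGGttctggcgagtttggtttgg
H2-Eb1: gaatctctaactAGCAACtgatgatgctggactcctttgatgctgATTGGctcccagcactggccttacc
H2-DMb1: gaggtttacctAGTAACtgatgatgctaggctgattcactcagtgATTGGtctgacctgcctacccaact
H2-DMb2: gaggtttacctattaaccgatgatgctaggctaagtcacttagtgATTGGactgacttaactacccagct
H2-Oa: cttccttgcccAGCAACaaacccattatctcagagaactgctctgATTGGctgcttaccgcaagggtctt
H2-Ob: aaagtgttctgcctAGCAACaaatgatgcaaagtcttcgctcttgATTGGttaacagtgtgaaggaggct

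These windows are chr17:34287847-34287916 on the minus strand for H2-Aa and, on the plus strand, chr17:34305763-34305832 for H2-Eb1, chr17:34153085-34153154 for H2-DMb1, chr17:34145114-34145183 for H2-DMb2, chr17:34092291-34092360 for H2-Oa and chr17:34238803-34238872 for H2-Ob. ATTGG began 48 bases before the annotated start in H2-Aa, 59 in H2-Eb1, 61 in H2-DMb1, 90 in H2-DMb2, 43 in H2-Oa and 57 in H2-Ob. The 7 genes have 8 promoter entries, since H2-DMa has 2. CCAAT, of which ATTGG is the other strand, was found in the 250 bases before the start in 7 of the 8 entries, the exception being 1 of those of H2-DMa, and in 33.8% of 32851 promoters. AGNAAC was found in 4 of the 8 entries and in 42.3% of promoters. The pair at a distance of 31 to 34 bases, a spacing set after these sequences had been read, was found in those 4 entries and in 0.177% of promoters. TGTGGT, a core bound by Runx proteins, was found in 2 of the 8 entries, 1 of H2-DMa and that of H2-DMb1, and in 14% of promoters. All shares count both strands.

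Together the 10 genes made up 6.57% ± 0.562 of all molecules in 1.5M KO and 11.1% ± 0.620 in 1.5M wt (SD, n = 3 each). They made up 3.14% ± 0.451 in P5 KO and 4.41% ± 0.0669 in P5 wt. Libraries ranged from 6.18% to 7.22% in 1.5M KO and from 10.7% to 11.8% in 1.5M wt, and at P5 from 2.68% to 3.58% in KO and from 4.33% to 4.45% in wt. No groups overlapped, so the share was lower in KO than in wt libraries at both ages and higher at 1.5M than at P5 in both genotypes. Because each molecule gives a single tag near its 3' end, levels of different genes can be set side by side without a correction for length. Cd74 ranked 1 or 2 among all genes in every library and H2-Aa between 2 and 5, while H2-Oa and H2-Ob never ranked above 1144.

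**Figure D1:**
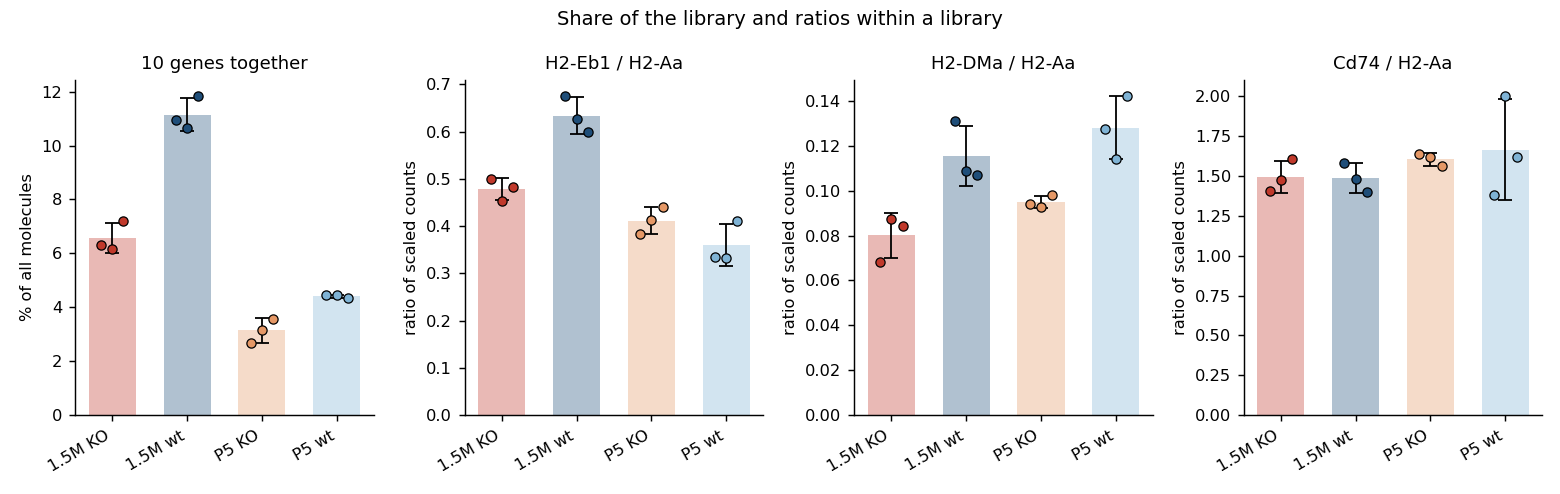
Share of all molecules held by the 10 class II genes (percent, left) and ratios of scaled counts within a library for H2-Eb1, H2-DMa and Cd74 over H2-Aa. Points are libraries, bars means and whiskers SD (n = 3 each). The share is 6.18% to 7.22% in 1.5M KO and 10.7% to 11.8% in 1.5M wt, and the ratio of H2-Eb1 to H2-Aa is 0.454 to 0.500 in 1.5M KO and 0.600 to 0.676 in 1.5M wt.

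How the knockout changed these genes in young adult skin was asked by comparing 1.5M KO with 1.5M wt. All 3 class II chain genes, Cd74 and H2-DMa fell in 1.5M KO, to between 0.448 and 0.647 of the 1.5M wt level, while H2-DMb1, H2-DMb2, H2-Oa, H2-Ob and Ciita did not pass the test. These are 5 of 10 genes lower and 0 higher at an adjusted p under 0.05 in limma, where 5.28% of the 10023 tested genes were called, 3.24% higher and 2.04% lower. Among the 390 genes averaging at least 20 scaled counts in some group, as these 5 do, 34.4% were called, 19% higher and 15.4% lower. The median log2 fold change of the 10 genes was −0.72, against 0.09 over all tested genes. In 7 of the 10 genes, the 5 called and H2-Oa and H2-Ob, the 2 groups did not overlap, as in 21.1% of all tested genes and in 54.1% of those averaging at least 20 scaled counts. H2-Ob alone among these was higher in 1.5M KO, by 1 molecule per library, and it passed the filter through KO libraries only.

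H2-Aa encodes the alpha chain of the class II molecule I-A (chromosome 17, 34282744 to 34287823, minus strand, mm10). It had 666, 677 and 757 scaled counts in 1.5M KO libraries, against 1035, 1019 and 1215 in 1.5M wt libraries. All 1.5M KO libraries lay below all 1.5M wt libraries, and H2-Aa fell (log2 fold change −0.64, SE 0.10, adjusted p = 0.000241). H2-Ab1 encodes the beta chain of I-A (34257689 to 34269419, plus strand). Its scaled counts were 297, 208 and 235 in 1.5M KO, against 490, 598 and 554 in 1.5M wt. The groups were again apart, and the change was larger in size on the log2 scale than that of its partner (−1.16, SE 0.16, adjusted p = 2.37e-05), a difference between genes that was not tested. In 1.5M KO the ratio of H2-Ab1 to H2-Aa lay between 0.308 and 0.446, against 0.456 to 0.587 in 1.5M wt.

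H2-Eb1, the beta chain gene of the class II molecule I-E (34305867 to 34316674, plus strand), had 333, 307 and 365 scaled counts in 1.5M KO, against 699, 638 and 729 in 1.5M wt. The lowest 1.5M wt library was well above the highest 1.5M KO library, and H2-Eb1 fell (−1.04, SE 0.13, adjusted p = 1.15e-05). An annotated antisense gene, Gm20513, overlaps H2-Eb1, and since the use of strand in counting was not given, their molecules cannot be told apart. The alpha gene of I-E appears in the table under the pseudogene symbol H2-Ea-ps and was picked for mention after its values had been seen. H2-Ea-ps averaged 24.2 ± 7.29 scaled counts in 1.5M KO and 19.2 ± 3.84 in 1.5M wt (SD, n = 3 each) and was not called (adjusted p = 0.722).

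Cd74 (chromosome 18, 60803848 to 60812652, plus strand) had 935, 998 and 1214 scaled counts in 1.5M KO, against 1636, 1510 and 1697 in 1.5M wt. The groups did not overlap, and Cd74 fell (−0.63, SE 0.10, adjusted p = 0.000224). Its ratio to H2-Aa within a library was 1.40 to 1.60 in 1.5M KO and 1.40 to 1.58 in 1.5M wt, ranges that overlap nearly fully. The calls of H2-Aa and Cd74 depended on the handling of the data. With quantile normalization their adjusted p-values were 0.716 and 0.453, and with the 6 libraries of the comparison fitted alone on the same genes they were 0.0906 and 0.143. Both genes rank among the top 5 in all 12 libraries, and quantile normalization gives equal ranks equal values.

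**Figure D2:**
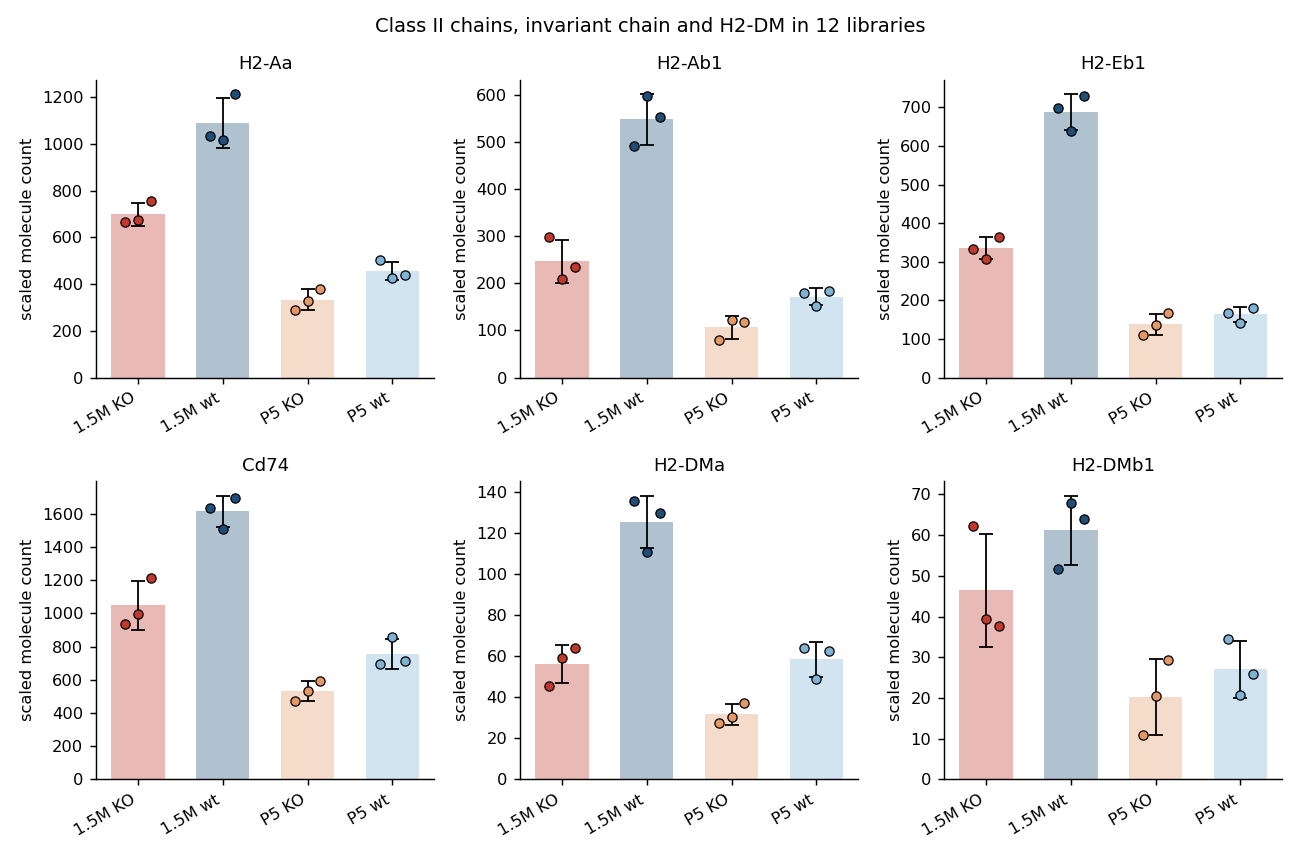
Scaled molecule counts of H2-Aa, H2-Ab1, H2-Eb1, Cd74, H2-DMa and H2-DMb1 in each library (points), with the mean (bar) and SD (whisker) of each group (n = 3 each). The 1.5M KO libraries lie below the 1.5M wt libraries in 5 of the 6 panels, with H2-DMb1 the exception, and P5 libraries of both genotypes lie lowest except for H2-DMa, where P5 wt (48.8 to 63.9) and 1.5M KO (45.6 to 63.7) overlap.

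The H2-DM heterodimer is built from the products of H2-DMa and of H2-DMb1 or H2-DMb2. H2-DMa (34119541 to 34139101, plus strand) had 45.6, 59.2 and 63.7 scaled counts in 1.5M KO, against 135, 111 and 130 in 1.5M wt. All 1.5M KO libraries were lower, and H2-DMa fell (−1.15, SE 0.18, adjusted p = 0.000197). Its ratio to H2-Aa was 0.0684 to 0.0874 in 1.5M KO and 0.107 to 0.131 in 1.5M wt, with no overlap. The annotation places Brd2, 2 antisense genes and a pseudogene across H2-DMa, so its tags are uncertain in the same way as those of H2-Eb1. H2-DMb1 (34153072 to 34160230, plus strand) had 62.3, 39.3 and 37.6 scaled counts in 1.5M KO, against 51.6, 68.0 and 64.0 in 1.5M wt. A single 1.5M KO library lay among the 1.5M wt values, and the difference was not called (−0.42, SE 0.28, 95% interval −1.01 to 0.17, adjusted p = 0.578). H2-DMb2 (34143307 to 34151555, plus strand) stayed between 0.479 and 2.49 in 1.5M KO and between 1.84 and 3.58 in 1.5M wt and was not called (−0.81, adjusted p = 0.575). In 4 libraries each, the values of H2-DMb1 and H2-DMb2 were fractions of a molecule, and the genes are close copies, so both are uncertain.

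H2-O is the heterodimer of the H2-Oa and H2-Ob products, and both genes were near the detection floor. H2-Oa (34092340 to 34095234, plus strand) was 0, 0.497 and 0 in 1.5M KO, a single molecule in the group, against 4.61, 2.15 and 2.67 in 1.5M wt, which is 11 molecules. The groups did not overlap, but H2-Oa was not called (log2 fold change −1.81, SE 0.57, adjusted p = 0.0702). Its adjusted p was 0.0313 with the 6 libraries alone, 0.0476 with these libraries alone on the same genes, 0.0296 with quantile normalization and 0.000642 with voom. H2-Ob (34238903 to 34254414, plus strand) had 1 molecule in each of the 3 libraries of 1.5M KO and was at 0 in all 1.5M wt libraries. It passed the filter through 4 libraries, all of them KO, and was not called (adjusted p = 0.366). With the 6 libraries alone on the same genes H2-Ob was called higher in 1.5M KO (0.57, adjusted p = 0.0101). The 1.5M KO libraries were also the deepest, and the part of depth in this was not tested.

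Ciita (chromosome 16, 10480059 to 10528418, plus strand, overlapped by Dexi on the other strand) had 3.36, 1.49 and 4.31 scaled counts in 1.5M KO, against 1.84, 5.72 and 1.78 in 1.5M wt. The libraries of the 2 groups were interleaved, and the log2 fold change was 0.04 with a 95% interval from −0.93 to 1.01 (SE 0.47, adjusted p = 1). These values rest on 19 molecules in 1.5M KO and 12 in 1.5M wt. The falls of H2-Aa (−0.64) and Cd74 (−0.63) are of a size within this interval, while those of H2-Ab1 (−1.16) and H2-Eb1 (−1.04) lie just below it. Changes of a gene this low are understated on log2(scaled count + 1), so the interval does not settle whether Ciita fell by as much.

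**Figure D3:**
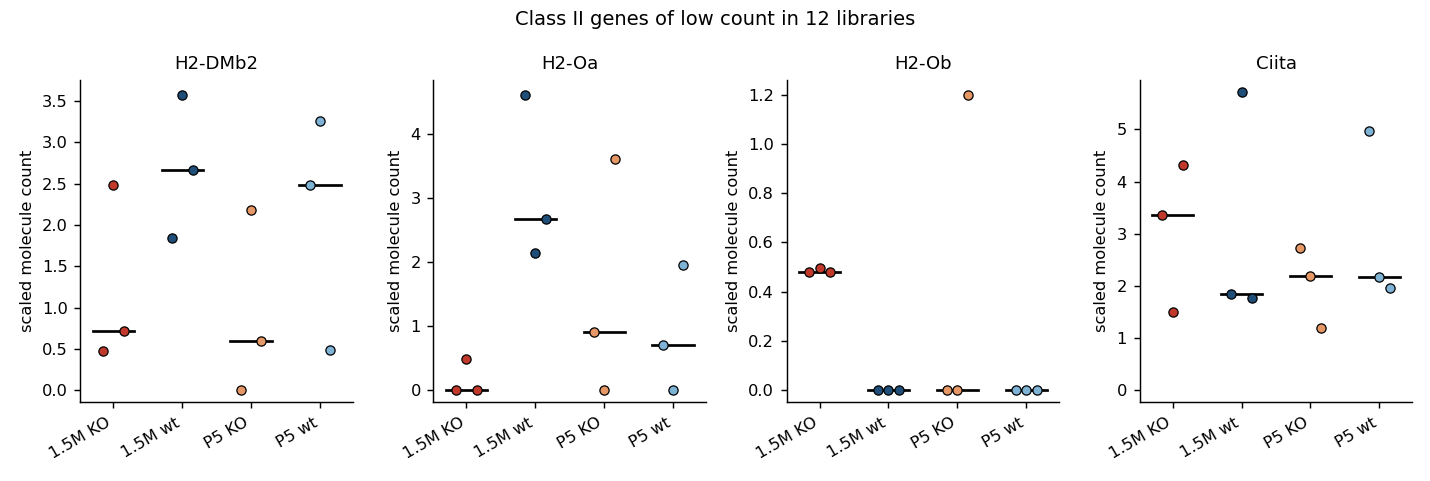
Scaled molecule counts of H2-DMb2, H2-Oa, H2-Ob and Ciita in each library (points), with the median of each group as a line (n = 3 each). H2-Oa is 0 to 0.497 in 1.5M KO and 2.15 to 4.61 in 1.5M wt, H2-Ob is above 0 in 4 KO libraries only, and Ciita overlaps in all groups.

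How the knockout changed the genes in newborn skin was asked with P5 KO set against P5 wt. H2-Aa, H2-Ab1, Cd74 and H2-DMa fell in P5 KO, to between 0.549 and 0.727 of the P5 wt level, and the other 6 genes, H2-Eb1 among them, did not pass the test. These are 4 of 10 genes lower and 0 higher, where 1.8% of the 10023 tested genes were called, 1.15% higher and 0.649% lower. Among the 390 genes averaging at least 20 scaled counts in some group, 18.2% were called, 10.8% higher and 7.44% lower. The median log2 fold change of the 10 genes was −0.47, against −0.01 over all tested genes. The groups did not overlap in 4 of the 10, the same 4 that were called, nor in 12.2% of all tested genes and 38.2% of those averaging at least 20 scaled counts.

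In the P5 KO libraries H2-Aa had 290, 329 and 379 scaled counts, against 502, 427 and 440 in P5 wt. The highest P5 KO library was below the lowest P5 wt library, and H2-Aa fell (log2 fold change −0.46, SE 0.10, adjusted p = 0.0208). H2-Ab1 had 79.0, 121 and 119 in P5 KO, against 179, 151 and 184 in P5 wt. It fell as well (−0.70, SE 0.16, adjusted p = 0.0200), with no overlap. Cd74 had 474, 532 and 592 in P5 KO, against 692, 856 and 710 in P5 wt, and fell (−0.50, SE 0.10, adjusted p = 0.0111). H2-DMa had 27.2, 30.6 and 37.2 in P5 KO, against 63.9, 48.8 and 62.5 in P5 wt, and showed the largest called change of the 4 (−0.86, SE 0.18, adjusted p = 0.0148). As at 1.5M, its ratio to H2-Aa was lower, at 0.0927 to 0.0981 in P5 KO and 0.114 to 0.142 in P5 wt, without overlap.

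H2-Eb1 had 111, 136 and 167 scaled counts in P5 KO, against 168, 142 and 181 in P5 wt. The groups overlapped, and the difference was not called (−0.26, SE 0.13, 95% interval −0.53 to 0.02, adjusted p = 0.429). H2-DMb1 had 10.9, 20.4 and 29.4 in P5 KO, against 34.5, 20.6 and 25.9 in P5 wt, also with overlap (−0.47, SE 0.28, adjusted p = 0.523). The rest were counted in few molecules. H2-DMb2 was at 0 to 2.18 in P5 KO and 0.488 to 3.25 in P5 wt, H2-Oa at 4 molecules in P5 KO and 3 in P5 wt, H2-Ob at 1 and 0, and Ciita at 7 and 11. None of these differences was detectable at this depth, with adjusted p-values between 0.652 and 0.901.

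The calls at P5 rested on single libraries. Without P5 KO library 1, which also had the largest sum of keratinocyte, neutrophil and erythroid genes, 0 of the 10 genes were called, with adjusted p-values of 0.112 for H2-Aa, 0.115 for H2-Ab1, 0.0624 for Cd74 and 0.0694 for H2-DMa (limma). Without P5 wt library 1 only Cd74 was called, the others being at 0.107 for H2-Aa, 0.0799 for H2-Ab1 and 0.0676 for H2-DMa. Without P5 wt library 3 again only Cd74 was called, with 0.0628 for H2-Aa, 0.104 for H2-Ab1 and 0.0795 for H2-DMa. Cd74 was lost without P5 wt library 2 (0.0857) and H2-Aa without P5 KO library 2 (0.0566). With the 6 libraries fitted alone on the same genes, none of the 10 was called, the 4 genes above having adjusted p-values of 0.206 to 0.498, and of all genes 0 were called there, with 836 at an unadjusted p under 0.05. With library totals taken without the keratinocyte, neutrophil and erythroid genes, 4 of 10 were called as before.

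**Figure D4:**
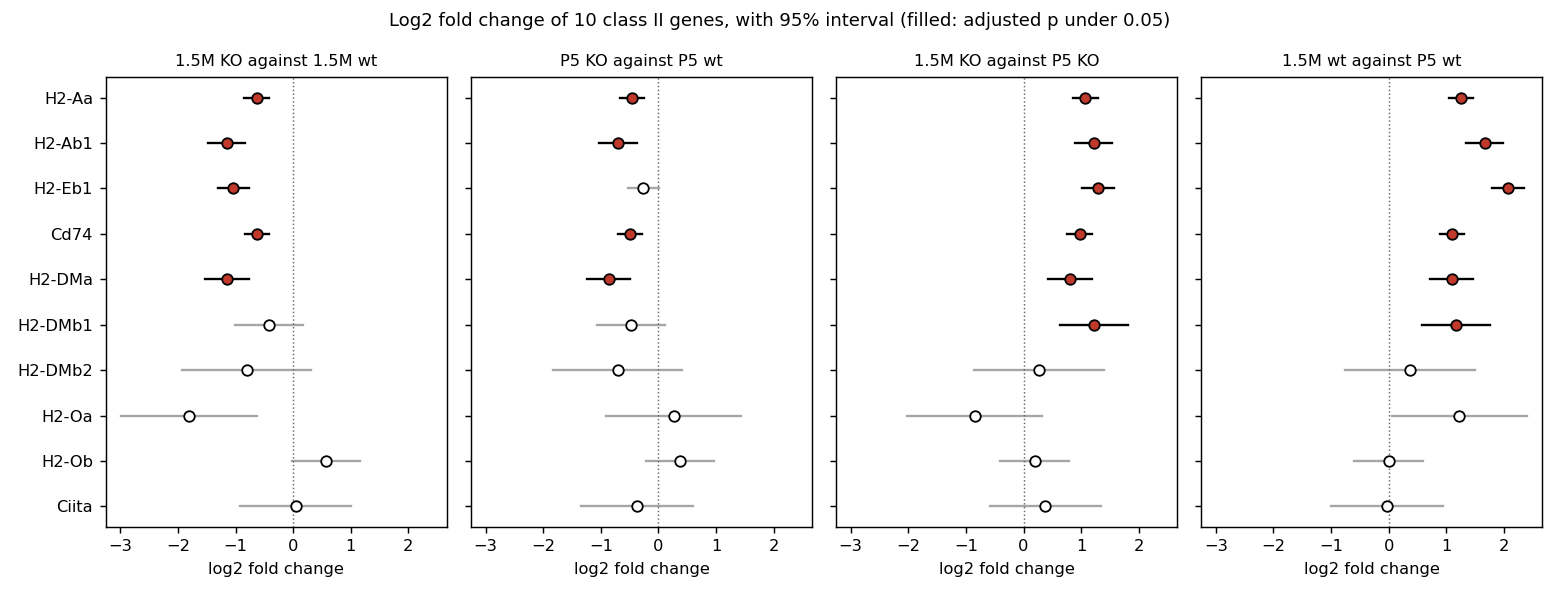
Log2 fold change of each of the 10 class II genes in 4 comparisons, with the 95% interval as a line. Filled points have an adjusted p under 0.05 in limma. Filled points are all below 0 for KO against wt (5 at 1.5M and 4 at P5) and all above 0 for 1.5M against P5 (6 in each genotype).

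Whether the knockout effect itself differed between the ages was tested as a difference of differences, in which all 4 groups enter. H2-Eb1 was the single gene of the 10 called, where 2% of all tested genes were called, 1.32% higher and 0.678% lower. Among the genes averaging at least 20 scaled counts in some group these shares were 20%, 12.3% and 7.69%. Its knockout effect was larger at 1.5M than at P5 by −0.78 on the log2 scale (SE 0.19, adjusted p = 0.0272). H2-Ab1 differed by −0.46 (SE 0.22, adjusted p = 0.375) and H2-Oa by −2.08 (SE 0.80, adjusted p = 0.236), and neither was called. H2-Aa, Cd74 and H2-DMa differed by −0.18, −0.13 and −0.29, with 95% intervals that ran from −0.48 to 0.12, from −0.43 to 0.16 and from −0.83 to 0.25. Within libraries, the ratio of H2-Eb1 to H2-Aa was 0.454 to 0.500 in 1.5M KO and 0.600 to 0.676 in 1.5M wt, without overlap. At P5 it was 0.382 to 0.440 in P5 KO and 0.332 to 0.411 in P5 wt, with overlap. The call of H2-Eb1 was lost when any of 7 libraries was left out: 0.0525 and 0.0855 without P5 wt library 1 and 2, 0.0682 and 0.0956 without 1.5M wt library 1 and 3, 0.0504 and 0.0850 without P5 KO library 2 and 3, and 0.0712 without 1.5M KO library 2.

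Age alone was examined in wild-type mice with 1.5M wt set against P5 wt, a comparison that shares its libraries with both knockout comparisons. All 3 chain genes, Cd74, H2-DMa and H2-DMb1 were higher at 1.5M, by between 2.13 and 4.20 times. These are 6 of 10 genes higher and 0 lower, where 5.21% of tested genes were called, 2.36% higher and 2.84% lower. Among genes averaging at least 20 scaled counts in some group, 35.4% were called, 20.8% higher and 14.6% lower. The median log2 fold change of the 10 genes was 1.14, against −0.22 over all tested genes.

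H2-Eb1 had the largest called rise of the 6, with a mean of 689 ± 46.1 scaled counts in 1.5M wt and 164 ± 19.7 in P5 wt (SD, n = 3 each), a log2 fold change of 2.07 (SE 0.13, adjusted p = 6.43e-10). H2-Ab1 averaged 547 ± 54.2 in 1.5M wt and 171 ± 17.8 in P5 wt (1.67, SE 0.16, adjusted p = 1.72e-07). H2-Aa averaged 1089 ± 109 in 1.5M wt and 456 ± 40.2 in P5 wt (1.25, SE 0.10, adjusted p = 2.94e-08). The 3 chain genes rose together with the groups far apart in each. Cd74 averaged 1614 ± 95.2 in 1.5M wt and 753 ± 89.9 in P5 wt and rose as well (1.10, SE 0.10), but with quantile normalization its adjusted p was 0.413. H2-DMa averaged 125 ± 12.9 in 1.5M wt and 58.4 ± 8.35 in P5 wt (1.09, SE 0.18, adjusted p = 0.000475). H2-DMb1 averaged 61.2 ± 8.53 in 1.5M wt and 27.0 ± 6.99 in P5 wt (1.17, SE 0.28, adjusted p = 0.0150). The call of H2-DMb1 was lost without P5 wt library 2 (0.0754), 1.5M wt library 2 (0.0639) or 1.5M wt library 3 (0.0539). H2-DMb2, H2-Oa, H2-Ob and Ciita were not called, with adjusted p-values from 0.252 to 1.

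In the knockout, 1.5M KO against P5 KO gave the same 6 genes higher and 0 lower, where 3.14% of tested genes were called, 1.72% higher and 1.43% lower. Among the genes averaging at least 20 scaled counts in some group, 28.2% were called, 19.7% higher and 8.46% lower. The median of the 10 log2 fold changes was 0.89, against −0.06 over all tested genes. H2-Eb1 averaged 335 ± 29.0 in 1.5M KO and 138 ± 28.0 in P5 KO (1.29, SE 0.13, adjusted p = 1.64e-06). H2-Ab1 averaged 247 ± 45.7 in 1.5M KO and 106 ± 23.8 in P5 KO (1.22, SE 0.16), H2-Aa 700 ± 49.5 and 333 ± 44.8 (1.08, SE 0.10), and Cd74 1049 ± 146 and 533 ± 58.7 (0.97, SE 0.10). So both genotypes carried more class II RNA per library at 1.5M, and the difference between their age changes is the same contrast as the difference between the knockout effects above. H2-DMa rose (0.80, SE 0.18, adjusted p = 0.0139) and so did H2-DMb1 (1.22, SE 0.28, adjusted p = 0.0156). H2-DMa was lost without P5 KO library 1 (0.0724), 1.5M KO library 2 (0.0717) or 1.5M KO library 3 (0.0981), and H2-DMb1 without P5 KO library 1 (0.108) or 1.5M KO library 1 (0.0849). Thinning to equal depth also ended both calls (0.127 for H2-DMa and 0.0861 for H2-DMb1), as did fitting the 6 libraries alone (0.0536 and 0.0601). The Cd74 call was lost with quantile normalization (0.0587).

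Peptides for class II are prepared by lysosomal proteases and their helpers. Of a list of 10 antigen processing genes, all tested, 6 were higher and 1 lower in 1.5M KO than in 1.5M wt, and 0 were higher and 1 lower in P5 KO than in P5 wt. Of all tested genes 5.28% were called at 1.5M and 1.8% at P5, and of those averaging at least 20 scaled counts 34.4% and 18.2%. The median log2 fold change of the list was 1.08 at 1.5M and 0.33 at P5. Lgmn encodes legumain, an asparaginyl endopeptidase of lysosomes. It had 29.3, 38.3 and 35.5 scaled counts in 1.5M KO, against 0.921, 1.43 and 2.67 in 1.5M wt (log2 fold change 3.77, SE 0.28, adjusted p = 2.84e-09). In P5 KO it had 46.3, 29.1 and 40.8, against 29.8, 19.5 and 27.3 in P5 wt, and was not called (0.58, adjusted p = 0.396). Thus 1.5M wt was the group with little Lgmn, with every library below those of the other 3 groups.

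Cst3 encodes cystatin C, a secreted inhibitor of cysteine proteases, and was the gene of this list that fell at both ages. It had 150, 150 and 159 scaled counts in 1.5M KO, against 519, 508 and 523 in 1.5M wt (−1.75, SE 0.11, adjusted p = 2.43e-10). In P5 KO it had 130, 148 and 144, against 264, 257 and 322 in P5 wt (−0.99, SE 0.11, adjusted p = 3.28e-05), a call lost with the 6 libraries alone on the same genes (0.206). The cathepsin genes Ctsz and Ctsc were higher in 1.5M KO than in 1.5M wt (1.92, adjusted p = 0.000535, and 1.59, adjusted p = 0.00346). Ctsz averaged 22.3 scaled counts in 1.5M KO, 21.6 in P5 KO, 13.8 in P5 wt and 5.56 in 1.5M wt. For Ctsc these means were 26.7, 21.0, 17.7 and 8.27, so 1.5M wt had the lowest mean of both genes. Neither was called in 1.5M KO against P5 KO (adjusted p = 0.980 and 0.670 in limma). Lgmn, Ctsz, Ctsc and Cst3 kept their call at 1.5M under all 18 alternative settings tried for that comparison. Macrophage genes moved with these enzymes at 1.5M, as given above, and their part was not tested.

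**Figure D5:**
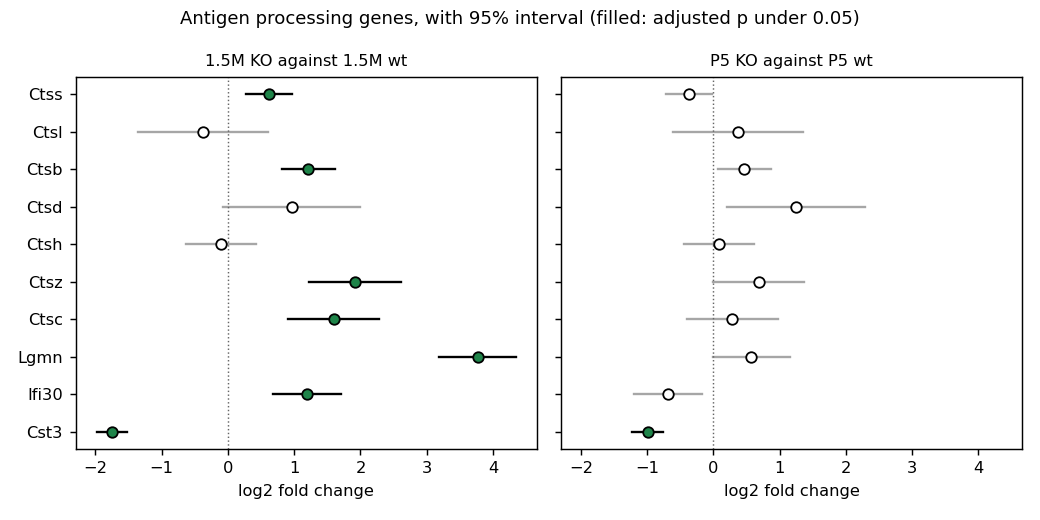
Log2 fold change of 10 antigen processing genes for KO against wt at 1.5M (left) and at P5 (right), with the 95% interval as a line and filled points for an adjusted p under 0.05 in limma. At 1.5M 6 genes are higher, led by Lgmn at 3.77, and Cst3 is lower at −1.75, and at P5 Cst3 alone is called, at −0.99.

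Most transcription factors known to act at class II promoters were counted in few molecules. Sfpi1 was the highest, with group means from 11.3 scaled counts in P5 KO to 27.2 in 1.5M KO. Of 16 listed genes 15 were tested, of which 2 were higher and 0 lower in 1.5M KO against 1.5M wt, where 3.24% of all tested genes were higher and 2.04% lower, and 0 were called in P5 KO against P5 wt. Irf8 and Irf1, factors of the interferon regulatory family, were the 2 that rose at 1.5M (1.57, adjusted p = 0.0324, and 1.70, adjusted p = 0.0440). Thinning to equal depth ended both calls (0.312 for Irf8 and 0.0636 for Irf1). Irf1 was lost without any 1 of the 6 libraries (0.0570 to 0.165), and Irf8 without 1.5M KO library 2 (0.0781) or 3 (0.101) or 1.5M wt library 2 (0.0579) or 3 (0.220). Irf8 was lower in 1.5M wt than in P5 wt (−1.56, adjusted p = 0.0352), and this call ended when any library of the comparison but 1.5M wt library 1 was omitted (0.0613 to 0.201). Sfpi1, the gene of the myeloid factor PU.1, was higher in 1.5M KO than in P5 KO (1.19, adjusted p = 0.00316), but not called after thinning to equal depth (0.0502).

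Other genes act in the turnover and traffic of class II molecules. Of 10 listed, 0 rose and 1 fell at each age, Cd82 at 1.5M (−1.11, adjusted p = 0.0325) and Cd63 at P5 (−1.60, adjusted p = 0.00435), where 2.04% and 0.649% of all tested genes fell. Cd63 was lost after thinning (0.0572) and with the 6 libraries alone on the same genes (0.206). Both genes encode tetraspanins, and the Cd82 call was lost when any library of its comparison but 1.5M wt library 3 was left out (0.0565 to 0.174). With age 2 of the 10 rose in wild type and 3 in the knockout, where 2.36% and 1.72% of all tested genes rose, or 20.8% and 19.7% of those averaging at least 20 scaled counts, and 0 of the 10 fell. Cd83, whose protein keeps class II molecules on the surface of dendritic cells by hindering the ligase March1, averaged 72.0 ± 18.6 in 1.5M wt and 7.58 ± 1.87 in P5 wt (SD, n = 3 each, log2 fold change 3.08, adjusted p = 1.72e-07). It averaged 43.0 ± 5.57 in 1.5M KO and 15.5 ± 8.01 in P5 KO (1.51, adjusted p = 0.00284, but 0.101 with the 6 libraries alone on the same genes). Among 7 tested of 9 other genes of the class II region, 0 were called in all 5 contrasts by limma.

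Class I molecules present peptides to CD8+ T cells. Of 6 class I genes listed, 2 rose in 1.5M KO against 1.5M wt, B2m (0.99, adjusted p = 5.31e-05) and H2-D1 (1.04, adjusted p = 3.93e-05), and 0 fell, where 3.24% of all tested genes and 19% of those averaging at least 20 scaled counts rose. In P5 KO against P5 wt B2m fell (−0.64, adjusted p = 0.0205), and 0 rose. Of all tested genes 0.649% fell at P5, and 7.44% of those averaging at least 20 scaled counts. H2-D1 had fractional values in 12 libraries, so it is uncertain among its close relatives. Omitting P5 KO library 2 ended the B2m call at P5 (0.0843), as did omitting any of the P5 wt libraries (0.0768, 0.0621 and 0.0643). That call was also lost with quantile normalization (0.0588), after thinning (0.0574) and with the 6 libraries alone on the same genes (0.235).

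The genes with the pattern most like that of Cd74 and of H2-Ab1 were found as the smallest root mean square distance between centred log2 profiles over the 12 libraries, among 384 other genes averaging at least 20 scaled counts in some group. For Cd74 the nearest gene of the 10 was H2-Aa, at a distance of 0.139 log2 units, and the nearest others included Cd9 (0.263), Lcp1 (0.312), Gnai2 (0.334) and Gm12191 (0.340). For H2-Ab1 the nearest of the 10 was H2-Eb1 (0.254), and the nearest others included Hpgds (0.324), Cd9 (0.422), Lmna (0.442) and Rgs1 (0.476). H2-Aa was thus closer to Cd74 than any of the 384 other genes was. The remaining class II genes were not: Cd9 was closer to Cd74 than H2-DMa (0.287), H2-Ab1 (0.372), H2-Eb1 (0.395) and H2-DMb1 (0.405). Likewise Hpgds was closer to H2-Ab1 than H2-DMa (0.358), H2-DMb1 (0.366) and Cd74 (0.372), though not than H2-Aa (0.306). Hpgds, which encodes a prostaglandin D synthase, averaged 7.93 ± 0.451 scaled counts in 1.5M KO and 23.2 ± 2.42 in 1.5M wt (SD, n = 3 each). It averaged 4.02 ± 0.673 in P5 KO and 9.19 ± 1.58 in P5 wt.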

How the data were processed

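Libraries were made with molecular barcodes and an oligo-dT primer, per the labels' protocols, and mapped to mm10 with TopHat2, per the submitters' processing notes. How reads were counted, with which annotation and use of strand, and how values were scaled was not given in the sources used here. What the authors deposited is a signal, which from its values is a molecule count that the authors scaled to an equal total. Per library, 92.6% to 94.9% of values above 0 were whole multiples, within 0.01, of the worth of 1 molecule, too few to treat them as counts, so depths are approximate and a test for normalized values was chosen over a count test. Spike-in molecules were not used here.

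Genes above 0 in at least 3 of 12 libraries (10023) were tested with limma 3.58.1 in R 4.3.3 on log2(scaled count + 1), which understates changes of low genes, fitting 4 group means without covariates and letting the prior variance follow mean level. P-values are two-sided and adjusted over all tested genes by Benjamini and Hochberg's method, with a threshold of 0.05 and no minimum fold. The fit was tested on simulated data. Chi-square per degree of freedom between replicates was 1.17 to 2.18, above sampling noise, so no pair was merged as a repeat deposit of 1 library. Gene positions are from GENCODE M21. Fold ratios are powers of the fitted log2 values.

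The 10 genes and all gene lists were chosen with earlier results of these data known. All 10 are named in each comparison. From the other lists, at most 4 called genes per list and comparison were named, by size of change. Of 133 list entries, 6 were matched through another symbol and 7 had no row. Alternatives covered pseudocount, filter, scaling, depth, voom, replicate number as a block, each library left out, and each comparison's libraries alone. Of the genes most like Cd74 and H2-Ab1 by profile, 1 is not reported here.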

Additional observations from a re-analysis of the deposited data

Results flagged for a closer look

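The knockout effect differed between 1.5M and P5 in limma for 1 of the 10 class II genes and for 8 genes of the other lists, all by the test of that difference, as the effect at 1.5M minus that at P5 on the log2 scale. By the same test 2% of all tested genes were called, and 20% of those averaging at least 20 scaled counts in some group. H2-Eb1 differed by −0.779 (adjusted p = 0.0272). Among antigen processing genes, Lgmn differed by 3.192 (adjusted p = 2.91e-05), Ifi30, a lysosomal thiol reductase, by 1.878 (0.00339), the protease gene Ctss by 0.985 (0.0298) and Cst3 by −0.761 (0.0087). Of the traffic genes, Cd63 differed by 1.977 (0.00884) and Cd83 by −1.57 (0.0446). Of the class I genes, B2m differed by 1.633 (2.62e-05) and H2-D1 by 1.444 (0.000157). The calls of Ctss and Cd83 were lost when any of 7 libraries each was left out, at adjusted p-values of up to 0.0972 and 0.134. Cd83 was also lost with the replicate block (0.0512), Ctss with median-of-ratios scaling (0.0579), and both after thinning to equal depth (0.0577 and 0.0816 for Ctss and Cd83). Cst3 was lost with quantile normalization (−0.26, adjusted p = 0.572) and Cd63 after thinning (1.44, adjusted p = 0.228).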

How the results depend on the processing

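The numbers of the 10 genes called were 4 (P5 KO against P5 wt), 5 (1.5M KO against 1.5M wt), 6 (1.5M wt against P5 wt), 6 (1.5M KO against P5 KO) and 1 (difference of knockout effects). At P5 the count was 2 with quantile normalization, 1 after thinning all libraries to 30856 molecules, 0 with the 6 libraries alone on the same genes, and 0 to 4 with each library left out in turn. For 1.5M KO against P5 KO it was 2 with the 6 libraries alone on the same genes, which lost H2-Ab1 (adjusted p = 0.0765), Cd74 (0.0699), H2-DMa (0.108) and H2-DMb1 (0.192). For the difference of effects it was 0 with quantile normalization, 0 after thinning and 0 to 1 with a library left out. Leaving out a library gave 5 to 5, 5 to 6 and 4 to 6 in the other comparisons, in the order above. All other settings kept the counts within 1.5 times. A kept count can hide a change of genes: for 1.5M KO against 1.5M wt, the 6 libraries alone on the same genes lost H2-Aa and Cd74. That setting gained H2-Oa, lower in KO, and H2-Ob, higher in KO. The fit of 6 libraries on the same genes and the totals without other cell types were chosen after seeing the data. The cause of these losses was not tested, apart from thinning and left-out libraries, which leave fewer molecules or samples by construction.

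Of 933 values of single members under alternative settings, 872 kept their side of the threshold, 56 lost a call and 5 gained one, and no called member changed direction. Over all genes the counts called ranged from 0 to 194 (180 as reported) at P5, from 359 to 843 (529) at 1.5M, from 111 to 632 (522) and from 86 to 824 (315) with age, and from 95 to 333 (200) for the difference. Median-of-ratios scaling moved the median of all genes by 0.11 for 1.5M wt against P5 wt, and calls there from 237 higher and 285 lower to 289 and 184, and quantile normalization moved it by 0.16. The summed level of the 10 genes in P5 wt was 1434 with median-of-ratios scaling and 1635 as deposited.

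Replicate numbers did not pair libraries: same-numbered libraries had correlations of deviations of −0.0171 to 0.0226, none over 0.1. With the replicate number as a block the counts were 4, 5, 6, 6 and 1, as without it.

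Depth limits H2-DMb2, H2-Oa, H2-Ob and Ciita, which had at most 19 molecules in a group.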
